A study of Mus musculus with 2 samples.

Results

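The meninges and large vessel spots were 120 capture spots of a Visium experiment on mouse brain, 60 in each of 2 coronal sections that contained the dorsal hippocampus. Each capture spot is a small barcoded disc that can lie under several cells of different types, and its RNA molecules are counted by unique molecular identifiers (UMIs). Members were chosen by a score, the mean over Dcn, Igf2, Col1a2, Slc6a13, Bgn and Acta2 of the natural log of 1 plus UMIs per 10000, minus the same mean over the choroid plexus genes Folr1, Kcnj13 and Clic6. The 60 highest scores were taken among 3914 spots of at least 1000 UMIs in the section labelled trained and among 3596 in the section labelled untrained, of 7890 spots under tissue in all. The trained mouse had learned to avoid a shock zone on a rotating arena (active place avoidance), the untrained mouse walked the same arena with the shock always off, and both were killed after a retention test without shock. Both were male ArcCreERT2::eYFPflx mice on a C57BL/6 background, 3 to 4 months old, so the inducible Cre driven by the Arc gene and the floxed reporter were shared by both groups. Sections carry the names of their deposited labels. Whether these match the animals that the study calls trained and untrained was not tested, and an exchange of the labels could not be told from the values given here, so every direction between sections holds for the labels only. Each group was 1 section of 1 mouse, so no difference between groups had a replicate check and no p-value was computed. Tissue was trimmed to fit the capture area, so that an edge of the tissue can be the brain surface or a cut. All intervals are 95% intervals that cover counting error only, since spots of a section are not replicates.

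The brain is wrapped by the leptomeninges, the pia and arachnoid, whose fibroblasts secrete collagens and proteoglycans, make retinoic acid and carry transporters for organic ions and amino acids. Arteries and veins enter from this surface with a wall of smooth muscle, which contracts through actin and smooth muscle myosin, and with a sleeve of perivascular fibroblasts and macrophages. Igf2 is secreted by meninges, large vessels and choroid plexus alike, and the subtraction of choroid plexus genes lowers the score of choroid plexus spots. Counts of the subtracted genes in members are therefore a description of the selection. In the section labelled trained Folr1, the choroid plexus folate receptor, had a UMI in 0 of 60 members and 3.37% of remaining spots. Clic6 had a UMI in 1 member and 8.38% of remaining spots there. In the section labelled untrained Folr1 had a UMI in 13 of 60 members and 26.24% of remaining spots. Clic6 had a UMI in 10 members and 30.03% of remaining spots there, so some members kept RNA of the subtracted genes.

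Many contractile genes of smooth muscle are known to be driven by serum response factor, which binds the CArG box, so promoters of a contractile gene, a second muscle gene and the most abundant leading gene are shown. RefSeq promoters on GRCm38.p6, from 250 bases before to 50 after the start of the gene, were matched by symbol for 21 of the 30 leading genes described below. They were searched on both strands for the CArG box and for TATAAA, which do not overlap each other here. The CArG box was present in 1.63% of 32851 promoters and TATAAA in 13.6%. Of the 21 promoters only that of Myl9 held a CArG box, 161 bases before the start, and 5 held TATAAA (Cp, Inmt, Myoc, Ogn and Pln). Promoters of the contractile genes Myh11 and Tagln were among the 9 not searched. Capitals mark the CArG box in Myl9 (myosin light chain 9, chr2:156775214-156775513, plus strand) and TATAAA in Pln (phospholamban, chr10:53337436-53337735, plus strand), and the promoter of Ptgds (prostaglandin D2 synthase, chr2:25469700-25469999, minus strand), the most abundant leading gene, held neither.
Myl9: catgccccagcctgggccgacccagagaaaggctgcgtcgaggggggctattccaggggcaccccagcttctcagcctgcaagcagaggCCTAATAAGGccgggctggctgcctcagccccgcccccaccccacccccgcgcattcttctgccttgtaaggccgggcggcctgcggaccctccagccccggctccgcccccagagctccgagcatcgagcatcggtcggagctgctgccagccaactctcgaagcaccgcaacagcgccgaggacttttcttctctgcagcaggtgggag
Pln: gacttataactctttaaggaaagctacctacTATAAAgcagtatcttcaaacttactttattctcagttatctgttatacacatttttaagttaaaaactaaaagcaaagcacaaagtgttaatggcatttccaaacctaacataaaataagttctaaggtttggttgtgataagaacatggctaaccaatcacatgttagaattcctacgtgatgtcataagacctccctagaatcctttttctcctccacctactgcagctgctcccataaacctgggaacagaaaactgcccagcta
Ptgds: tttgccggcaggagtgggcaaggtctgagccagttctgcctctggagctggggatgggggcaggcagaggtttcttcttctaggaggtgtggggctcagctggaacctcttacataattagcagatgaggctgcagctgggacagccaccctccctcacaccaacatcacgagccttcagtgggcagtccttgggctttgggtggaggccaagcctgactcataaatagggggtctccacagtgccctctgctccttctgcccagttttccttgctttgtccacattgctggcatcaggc
These letters describe the windows and not binding in these sections.

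The values that chose the members are given as a description. Scores of members ran from 0.595 to 1.85 in the section labelled trained and from 0.708 to 2.21 in the section labelled untrained. The first spots outside scored 0.575 and 0.701, and 19 and 18 non-members lay within 0.1 below the lowest member, so the limit cut through a continuous range. Acta2, smooth muscle actin, had 536 CPM, that is UMIs scaled to the usual fixed total, over the pooled members against 11.5 CPM over the remaining spots in the section labelled trained, and 618 against 18.6 CPM in the section labelled untrained. Igf2 had 365 against 20.1 CPM and 652 against 86.4 CPM. Dcn, the proteoglycan decorin, had 339 against 8.47 CPM and 438 against 16.2 CPM. The 6 genes together gave a median of 6 UMIs per member in the section labelled trained and 19 in the section labelled untrained. Only 4 members of the section labelled trained had a UMI of all 6 genes and 12 had just 2 of them, whereas 23 members of the section labelled untrained had all 6 and 3 had 2. Membership therefore rested on few molecules in the section labelled trained, whose members had a median of 4388 UMIs against 10233 in the section labelled untrained. Medians of the remaining spots were higher, at 6297 and 14231 UMIs.

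Position on the capture grid was not used by the rule. In the section labelled trained 12 of 60 members (20%, interval 10.8 to 32.3%) had at least 1 of 6 grid neighbours without tissue, against 5.63% (4.92 to 6.41%) of the remaining spots. In the section labelled untrained 14 of 60 members (23.3%, 13.4 to 36.0%) did, against 9.98% (9.01 to 11.02%). Inside the tissue lay 48 and 46 members. Vessels enter the brain and an edge can be a cut, so the edge share does not measure how far the label holds. Most members stood alone, with 50 and 42 separate patches, a largest patch of 3 and 7 spots, and 41 and 35 patches of a single spot. Beside another member lay 19 (31.7%) and 25 (41.7%) of the 60, while members made up 1.53% and 1.67% of the spots. The share that a random choice of spots would give was not computed. After the map had been seen, 3 lines of members were counted. In the section labelled trained 7 of the 14 spots in grid rows 7 to 20 of columns 69 and 70 were members, a straight line that ran inward from the tissue edge and held 2 edge spots. The section labelled untrained had 14 members that followed an arc among 130 spots of rows 43 to 62 near the left side, and 9 that followed an arc among 50 spots of rows 37 to 46 near the right side, with none at the edge. The 2 sections shared 3448 barcodes, which stand for grid positions, and 8 of these were members in both. Of the 57 positions of members labelled untrained that could be chosen in the section labelled trained, 8 (14.04%) were members there too, against 1.53% of all its spots. Of 43 positions in the other direction the 8 made 18.6%, against 1.67%. They included the highest score of each section, at grid row 73 and column 81, with 5075 UMIs in the section labelled trained and 1164 in the section labelled untrained. Of the 10 highest scores 4 and 5 lay at these positions, and 3 of the 8 were at the tissue edge in each section. With these positions left out, a choice made after seeing the data, 559 genes in place of 578 were at least 2-fold higher in the members of both sections, and the leptomeningeal median log2 ratios were 3.21 and 3.01 in place of 3.30 and 3.16. The reason for the shared positions was not tested.

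**Figure D1:**
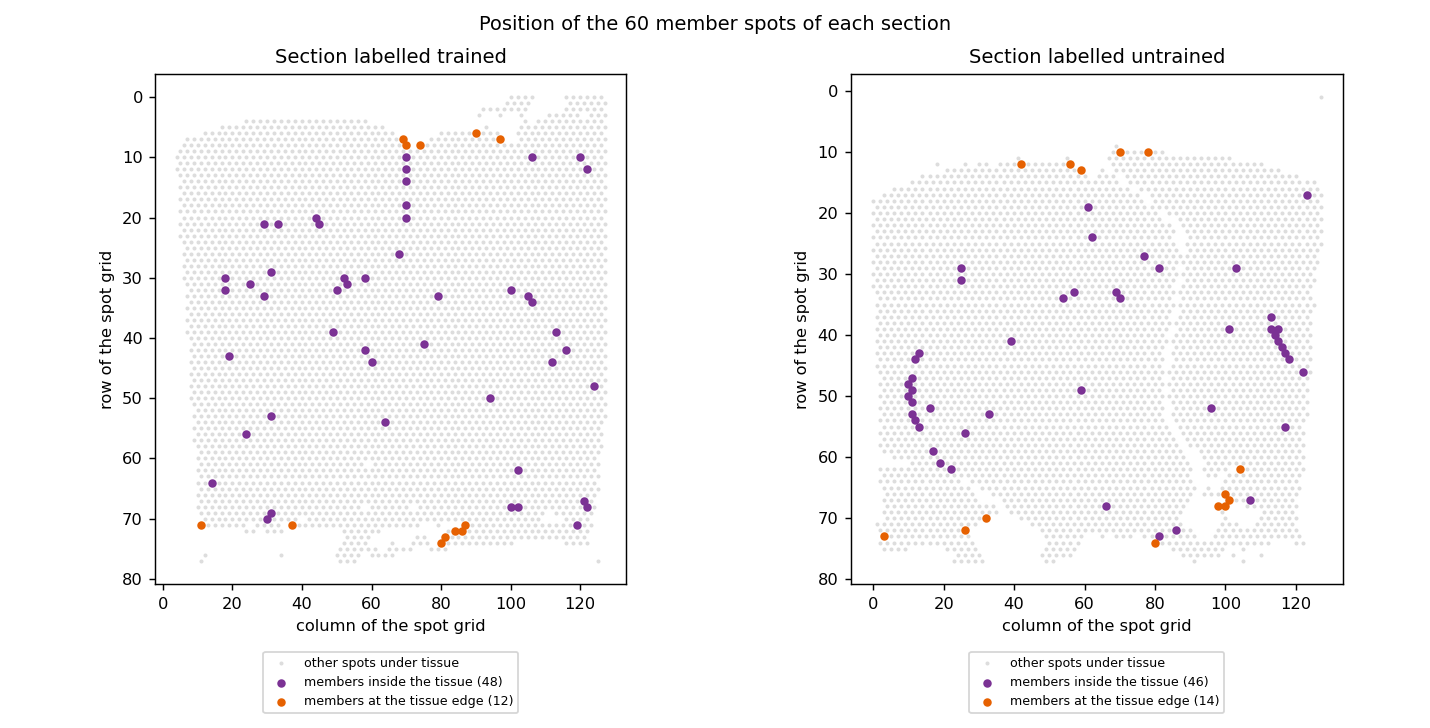
Position of every spot under tissue on the capture grid (axes in grid columns and rows) for the 2 sections, with the 60 members of each coloured by whether a grid neighbour had no tissue. Members at the edge number 12 and 14, and a line of members runs inward from the upper edge in the section labelled trained.

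Genes outside the rule were compared between pooled members and pooled remaining spots of the same section. Of 11992 genes with at least 100 UMIs in each section, 1229 (10.2%) were at least 2-fold higher in the members of the section labelled trained and 949 (7.91%) in the section labelled untrained. At least 2-fold lower were 957 (7.98%) and 580 (4.84%). Both sections had the same direction for 578 higher genes (4.82%) and 136 lower genes (1.13%). A count below that is given for 1 section is to be read against that section's share, and a count for both sections against the shares in both. Gene lists can share genes, so their counts are not independent. Slc6a20a, Slc13a3, Slc13a4 and Slc22a8 were on the leptomeningeal and the transporter list. Lum, Ogn and Fmod were on the leptomeningeal and the matrix list, and Serping1 was on the leptomeningeal and the complement list. With a pseudocount of 2 UMIs in place of 0.5 there were 964 higher and 19 lower genes in both sections, and among genes of at least 400 UMIs 142 and 61, so the balance of higher to lower genes depended on how weak genes were treated. Genes tested had a median of 8 and 18 UMIs over the members, so a 2-fold ratio of a weak gene was often within counting error, and 621 of the 1229 and 789 of the 949 higher genes had an interval above no difference. Of the lower genes 257 of 957 and 328 of 580 had an interval below it, and of those lower in both sections 45 of 136 had so in both. The 9 rule genes were not among the genes tested, but genes made by the same cells follow them, so every ratio is a description of the chosen spots and not a test.

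The 30 leading genes, ranked by the lower of the 2 sections' ratios, included 11 genes of the leptomeningeal list and 6 of the smooth muscle list, both described below. Of the others 2 were on the list of border-associated macrophages and 7 on no list. The intervals of all 30 lay above 2-fold in both sections. All were ranked on these ratios, and 4 of them, Inmt, Lum, Pf4 and Thbd, had fewer than 100 UMIs in the remaining spots of the section labelled trained, so that they passed the filter only through the members and had to be higher there. The other 26 passed it on the remaining spots alone. Slc38a5, on the lists of arterial and venous endothelium and of transporters, also passed only through the members, with 5 UMIs there and 96 in the remaining spots of the section labelled trained. Myh11, smooth muscle myosin heavy chain (chr16:14194535-14291372, minus strand, 41 exons), came first with 138 against 4.25 CPM and 153 against 6.20 CPM, log2 ratios of 5.03 (4.48 to 5.54) and 4.63 (4.31 to 4.94). Tagln, transgelin, which binds actin in smooth muscle (chr9:45929619-45936058, minus strand, 5 exons), had 247 against 6.38 CPM and 139 against 5.97 CPM, log2 ratios of 5.28 (4.87 to 5.67) and 4.55 (4.21 to 4.87). Tagln overlaps Pcsk7 on the other strand, whose reads cannot be told apart if strand was not used in counting. Fmod, the collagen-binding proteoglycan fibromodulin (chr1:134037254-134048277, plus strand, 3 exons), had 109 against 3.63 CPM and 139 against 5.97 CPM. Its log2 ratios were 4.92 (4.29 to 5.48) and 4.55 (4.21 to 4.87). A fibroblast gene thus stood beside the muscle genes, and the intervals of these 3 genes overlapped in each section.

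Mgp, matrix Gla protein, which is made by vessel walls and meningeal fibroblasts (chr6:136872435-136875823, minus strand, 2 exons), was the strongest gene of this group after Ptgds. Its members' level was 1037 against 40.0 CPM in the section labelled trained and 1062 against 63.5 CPM in the section labelled untrained, log2 ratios of 4.70 (4.51 to 4.88) and 4.06 (3.95 to 4.18). Over single members Mgp ran from 0 to 6689 CPM with a median of 464 in the section labelled trained, and from 0 to 8071 CPM with a median of 707 in the section labelled untrained. The remaining spots had a median of 0 in both sections, and 45 and 50 of the 60 members exceeded the 90th percentile of the remaining spots. Ptgds, which arachnoid cells secrete into the cerebrospinal fluid and oligodendrocytes also make, had 14739 against 1470.4 CPM and 21478 against 1728 CPM. Over single members Ptgds ran from 0 to 145613 CPM with a median of 7130 in the section labelled trained, and from 585 to 118470 CPM with a median of 16650 in the section labelled untrained. The members therefore did not share 1 level of Ptgds, and 34 and 45 of 60 exceeded the 90th percentile of the remaining spots.

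**Figure D2:**
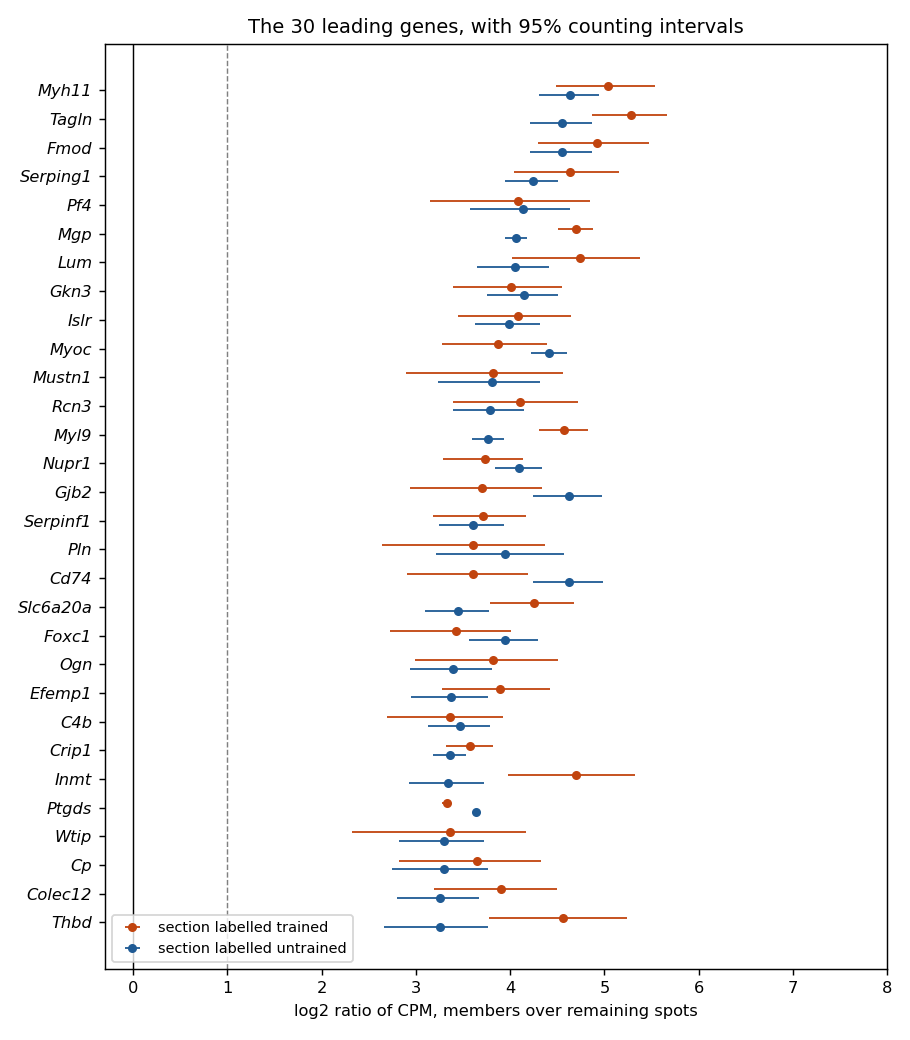
Log2 ratio of pooled CPM in members over remaining spots for the 30 leading genes, one point per section, with bars for the 95% counting interval and a dashed line at 2-fold. All points lie above the 2-fold line, with Myh11 at 5.03 and 4.63 at the top of the order.

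Smooth muscle markers beyond Acta2 were counted in a list of 16 genes, of which 11 passed the filter on total UMIs. Of these, 10 of 11 in the section labelled trained were at least 2-fold higher and in the section labelled untrained 9 of 11, with median log2 ratios of 3.58 and 3.39 against 0.04 and -0.01 over all genes tested. Myl9, the regulatory light chain, had 510.1 against 21.5 CPM and 454 against 33.3 CPM. Tpm2, a tropomyosin, had 161 against 18.8 CPM and 181 against 17.3 CPM. Pln, which restrains the calcium pump of the sarcoplasmic reticulum, had 46.1 against 3.91 CPM and 31.7 against 2.09 CPM. Tpm1, which many cell types express, had log2 ratios of only 0.92 and 0.92, and Sncg, a synuclein, had 1.51 and 0.60. Cnn1, calponin, did not pass the filter, yet 13 of its UMIs lay in the members and 19 in all remaining spots of the section labelled trained, and 32 and 52 in the section labelled untrained. The other genes not tested included Actg2, with 0 and 2 UMIs in the members, so the counts hold for the 11 tested genes only.

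Leptomeningeal fibroblast markers were a list of 35 genes, of which 24 passed the filter. At least 2-fold higher were 21 of 24 in both sections, with median log2 ratios of 3.30 and 3.16. Without Lum, which passed only through the members, they were 20 of 23 in both sections, with medians of 3.26 and 2.93. Serping1, the inhibitor of complement C1, had 118 against 4.84 CPM and 179 against 9.53 CPM. Lum, the proteoglycan lumican, had 82.3 against 3.12 CPM and 99.3 against 6.04 CPM, from 25 and 72 UMIs in the members and 91 and 352 in the remaining spots. Foxc1, a transcription factor needed for meningeal development, had 79.0 against 7.48 CPM and 105 against 6.85 CPM. Gjb2, the gap junction protein connexin 26 of arachnoid cells, had 69.1 against 5.42 CPM and 114 against 4.67 CPM, so the fibroblast signal included both matrix and junction genes. Nupr1, a stress-responsive chromatin protein, had log2 ratios of 3.73 and 4.09, and Islr and Ogn, secreted leucine-rich proteins, had 4.09 and 3.99 and 3.82 and 3.40. Below 2-fold were Igfbp6 (0.63 and 0.46), Zic1 (0.83 and 0.88) and Ccn3 (0.44 and -0.35). Aldh1a2, the retinoic acid synthesising enzyme of meninges, was below the filter, with 15 UMIs in the members and 60 in the remaining spots of the section labelled trained and 88 and 233 in the section labelled untrained.

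Solute transporters, of which leptomeningeal cells carry many, gave 13 and 12 of 21 tested genes at least 2-fold higher, with medians of 1.54 and 1.45. Without Slc38a5 they were 12 and 11 of 20, with medians of 1.52 and 1.42. Slc6a20a, a carrier of proline and related amino acids (chr9:123634770-123678885, minus strand, 10 exons), had 171 against 9.02 CPM and 116 against 10.7 CPM, log2 ratios of 4.26 (3.79 to 4.68) and 3.45 (3.09 to 3.77). Slc7a11, the cystine and glutamate exchanger, had 174 against 16.4 CPM and 168 against 17.7 CPM. Slc22a8, an organic anion transporter, had log2 ratios of 2.81 and 2.88, and the dicarboxylate carrier Slc13a3 had 2.84 and 2.93. Slc2a1, the glucose transporter of brain endothelium, was at 1.97 and 1.40. Slc23a2, a vitamin C carrier, was at -0.30 and -0.31. At least 2-fold lower were 0 and 1 of the 21 tested, with a lowest log2 ratio of -1.27 in the section labelled untrained. Of the genes that handle retinoic acid 5 and 6 of 9 tested were at least 2-fold higher.

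The insulin-like growth factor axis, to which the rule gene Igf2 belongs, had 4 and 6 of 9 tested genes at least 2-fold higher. Igfbp7, a binding protein deposited in vessel walls, had 336 against 63.1 CPM and 277 against 59.98 CPM. Igfbp2, which meninges and choroid plexus secrete, had 253 against 55.6 CPM and 376 against 177 CPM. Igf1r was near the rest in both sections at 0.22 and 0.12. Igf2r had 0 UMIs in the members of the section labelled trained, where remaining spots had 7.72 CPM, below the level of 9.87 CPM that 3 UMIs over those members would give.

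Extracellular matrix genes were higher across several families. Of the proteoglycan and matricellular genes 17 and 18 of 19 tested were at least 2-fold higher, with medians of 2.99 and 2.50, and without Lum 16 and 17 of 18. Fn1, fibronectin, had 220.5 against 17.7 CPM and 129.6 against 16.2 CPM. Vtn, vitronectin, which pericytes secrete, had 398 against 40.4 CPM and 636 against 74.4 CPM. Timp3, an inhibitor of metalloproteinases bound to the matrix, had log2 ratios of 2.10 and 1.57. Of the 17 basement membrane genes 10 passed the filter, and 8 and 7 of them were at least 2-fold higher, with medians of 2.13 and 1.74. Lamb2, a laminin of vascular basement membranes, had 121.8 against 20.1 CPM and 146 against 21.3 CPM. Col4a1, the main type IV collagen chain, had 49.4 against 11.8 CPM and 71.7 against 14.2 CPM. Sparc, a secreted collagen-binding protein that glia also express, was closer to the rest at 0.74 and 0.67. Among 18 other collagens only 6 passed the filter, with 3 and 5 at least 2-fold higher and Col18a1, the source of endostatin, in front at 3.18 and 2.59. The fibrillar collagen Col1a1 was too weak for the filter, with 17 UMIs in members and 55 in the remaining spots of the section labelled trained and 66 and 246 in the section labelled untrained.

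Markers of the vessel lining and of mural cells were higher with smaller ratios than those of the muscle list. Of 20 endothelial markers, all tested, 17 were at least 2-fold higher in each section, with medians of 1.51 and 1.67. Cldn5, the tight junction protein of the blood-brain barrier, had 174 against 25.4 CPM and 192 against 41.5 CPM. Pecam1, an adhesion molecule of endothelium, had log2 ratios of 2.44 and 2.36. Slco1c1, the thyroxine transporter typical of capillaries, was at 0.57 and -0.83. Of 10 tested markers of arteries and veins 8 and 7 were at least 2-fold higher, with medians of 2.48 and 1.804. Without Slc38a5, which passed the filter only through the members, they were 7 and 6 of 9, with medians of 2.51 and 1.49. They included Gkn3, known from brain arteries, at 102 against 6.41 CPM and 101 against 5.73 CPM, and Vwf, von Willebrand factor, at 88.8 against 10.5 CPM and 88.2 against 7.45 CPM. Ackr1, the chemokine-binding receptor of venules, was at -0.40 and 0.41. Of 10 pericyte markers 9 and 7 were at least 2-fold higher, with medians of 1.5 and 1.27. Pdgfrb, the receptor that recruits mural cells, had 39.5 against 8.44 CPM and 70.3 against 10.6 CPM, while the capillary pericyte genes Higd1b and Atp13a5 had 1.53 and 0.39 and 1.42 and 0.77. The smooth muscle median was thus the highest of these 3 in both sections, while the endothelial and pericyte medians were nearly equal in the section labelled trained.

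BMP and TGF beta genes, which signal between mural cells, endothelium and meninges, had 14 and 13 of 18 tested at least 2-fold higher. Bmp7 had 65.8 against 7.27 CPM and 64.8 against 12.4 CPM, and Bmp6 55.9 against 6.41 CPM and 80.0 against 12.9 CPM. Their target Id1 had 148 against 25.4 CPM and 112 against 26.2 CPM, and Id3 had 372 against 64.7 CPM and 375 against 79.2 CPM. Ltbp4, a latent TGF beta binding protein of elastic matrix, was at 2.55 and 2.89. The receptor Bmpr2 stayed near the rest at 0.41 and 0.25.

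Border-associated macrophages live in the meninges and around vessels, and most of their 19 listed markers were too weak to test. Of 6 that passed the filter 1, Pf4, did so only through the members, with 15 UMIs there and 87 in the remaining spots of the section labelled trained. The other 5 were at least 2-fold higher in both sections, with medians of 2.42 and 2.06. They included Apoe, which was abundant in the remaining spots too, with 4156 against 1956 CPM and 6054 against 2563 CPM. Apoe made up most of the summed level of the list in members, 4390 and 6383 CPM, so the list is not specific to these macrophages. Pf4, platelet factor 4, which these macrophages express (chr5:90772435-90773383, plus strand, 3 exons), had 49.4 against 2.98 CPM and 52.4 against 3.003 CPM. Cd74, the invariant chain of MHC class II, had 79.0 against 6.62 CPM and 110.3 against 4.48 CPM. Mrc1, the mannose receptor that defines these cells, had 12 UMIs in the members and 55 in the remaining spots of the section labelled trained and 28 and 107 in the section labelled untrained. Microglia markers had smaller ratios, with 3 and 7 of 14 at least 2-fold higher and medians of 0.66 and 1.05. Chemokine and complement genes had 8 of 11 at least 2-fold higher in each section. C4b had 85.6 against 8.47 CPM and 124 against 11.2 CPM, and the interferon-inducible Ifitm3 had log2 ratios of 3.30 and 2.78. Cxcl12, a chemokine of meninges and vessels, had 115 against 24.6 CPM and 119.9 against 31.0 CPM.

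Transcripts of neighbouring brain cells remained in the members. Of 20 neuron markers none was 2-fold higher, 3 and 2 were at least 2-fold lower, and the medians were -0.42 and -0.63. Snap25, a synaptic vesicle fusion protein, still had 1319.6 CPM in the members against 2196 CPM in the section labelled trained and 670.0 against 1495 CPM in the section labelled untrained. The members were thus mixtures that held RNA of neurons as well as of border and vessel cells. Summed over its tested genes the neuron list had 8322 CPM in members against 12262 CPM in remaining spots and 6586 against 10817 CPM. Astrocyte markers varied in size of ratio, with 7 of 20 at least 2-fold higher in each section and 1 and 0 at least 2-fold lower. In each section 19 of 20 were above 0, with medians of 0.50 and 0.77. Higher in both sections were Gfap (309 against 52.6 CPM and 637 against 59.7 CPM), the water channel Aqp4 (1.76 and 2.19) and Vim (2.98 and 2.88). Which cells of the spots these transcripts came from was not tested. Myoc, an olfactomedin protein of surface astrocytes, had 109 against 7.51 CPM and 401 against 18.9 CPM. The glutamate transporter Slc1a2 of grey matter astrocytes was near the rest at 0.42 and 0.10, and Slc7a10 was at -1.37 and -0.44.

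Oligodendrocyte markers had medians of 0.22 and 0.89, with 0 and 3 of 14 at least 2-fold higher. Among edge spots alone both medians were below 0, at -1.07 and -0.44. Without the positions that held members in both sections the median was -0.07 in the section labelled trained. Choroid plexus markers, which the subtraction of the rule pushes down, had medians of -0.96 and -1.34 with 6 and 9 of 13 at least 2-fold lower. Of the 6 in the section labelled trained, 3 (Wfdc2, Tmem72 and Sostdc1) had no UMI in the members, and the median over the other genes was -0.52. Ttr, the transthyretin of choroid plexus, still had 2656 CPM in the members against 5376 CPM and 4883 against 18223 CPM. Over single spots the order was the other way, with medians of 998.9 CPM in members and 662 CPM in remaining spots and 3969 and 2746 CPM, since the pooled level of the remaining spots rested on spots of up to 342273 and 313362 CPM. Of 10 ependymal markers 3 and 2 were at least 2-fold higher and 3 and 3 at least 2-fold lower, with medians of -0.57 and -0.42. Among the higher were Pltp and Tm4sf1, which other border cells express too, while Tmem212 of ciliated cells had 0 UMIs in the members of the section labelled trained and log2 -1.53 in the other. Of 5 Schwann cell markers 1 and 3 were at least 2-fold higher, with Pmp22 at 1.59 and 1.45.

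Haemoglobin genes, which report red cells left in vessels, were modestly higher in all 4 tested. Hbb-bs had 2310.0 against 1461 CPM and 1205 against 815 CPM, and none of the 4 reached 2-fold. Hba-a1 and Hba-a2 are near-identical copies whose reads can be split between them, and had log2 ratios between 0.50 and 0.81. Mitochondrially encoded transcripts were close to the rest, with medians of -0.06 and -0.17 over 13 genes. Immediate early genes, induced by neuronal activity, had medians of -0.19 and -0.43 over 25 genes, of which 3 and 3 were at least 2-fold higher and 4 and 4 at least 2-fold lower. Egr1 had 79.0 against 150.4 CPM and 52.4 against 134 CPM, and Arc had 36.2 against 75.1 CPM and 40.0 against 68.0 CPM. The 3 at least 2-fold higher in both sections were Klf2 (2.42 and 2.28) and Klf4 (1.85 and 1.13), transcription factors that endothelium expresses under flow, and the plasminogen activator Plat (1.27 and 2.10).

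**Figure D3:**
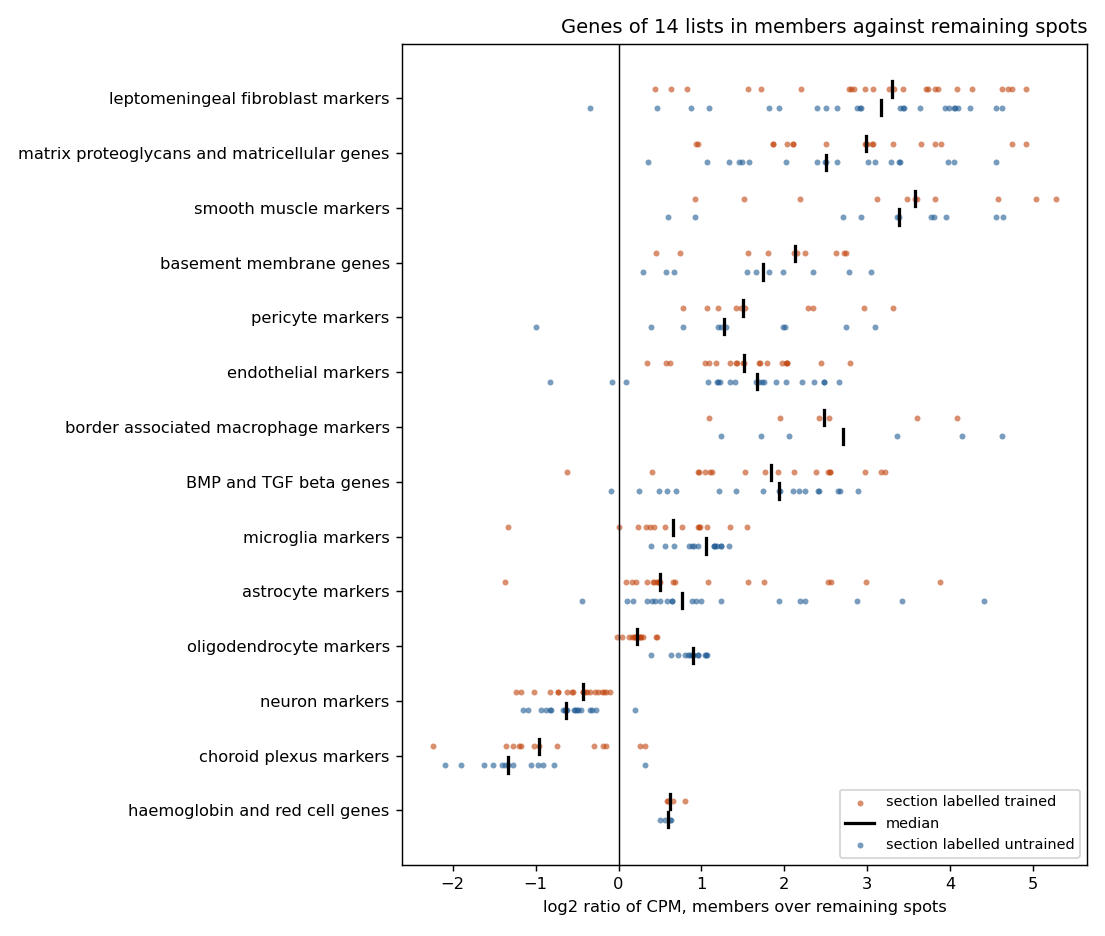
Log2 ratio of pooled CPM in members over remaining spots for each tested gene of 14 lists, 1 point per gene and section, with a black tick at the median of each section. Leptomeningeal and smooth muscle lists have the highest medians, the latter with 3.58 and 3.39, and the medians of the neuron and choroid plexus lists lie left of 0.

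The 10 genes lowest in the members had almost no molecules there. As many as 9 of the 10 had 0 UMIs in the members of the section labelled trained and 3 of 10 in the section labelled untrained, and none had more than 2. Hs3st2, a heparan sulfate enzyme of neurons, had 0 UMIs in the section labelled trained where remaining spots had 16.0 CPM, at least 1.62-fold lower when 3 UMIs over the members are taken as the floor, and 2 UMIs in the section labelled untrained against 14.6 CPM. Trbc2, a T cell receptor constant gene, had 1 and 2 UMIs against 32.4 and 19.8 CPM, log2 ratios of -2.72 (-8.60 to -0.82) and -2.52 (-5.89 to -0.99). Also among them were Cys1, Nexmif, Tmem108, Pgr, Gpr176, Gm14418 and Gm39244. The counting interval lay below no difference for 3 of the 10 genes in the section labelled trained and for 7 of the 10 in the section labelled untrained.

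The rule averaged fibroblast genes and the muscle gene Acta2, so it favoured spots that hold both kinds of signal, and their joint occurrence in members is a description of the selection. For each spot the smooth muscle list was summed, as were leptomeningeal markers without Ptgds and Apod. Members' smooth muscle sums ran from 0 to 9705 CPM with a median of 1337 in the section labelled trained, and from 0 to 14528 CPM with a median of 1354 in the section labelled untrained. Leptomeningeal sums ran from 512 to 16941 CPM with a median of 2353, and from 392 to 15350 CPM with a median of 3494. Above the 90th percentile of the remaining spots for both sums lay 41 of 60 members in the section labelled trained and 44 of 60 in the section labelled untrained, against 2.958% and 2.998% of the remaining spots. For the leptomeningeal sum alone there were 12 and 14 members, for the smooth muscle sum alone 2 and 0, and for neither 5 and 2. Within members the rank correlation of the sums was 0.28 and 0.31 over 60 spots each, a description only, since both sums are divided by the same spot total.

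Members at the tissue edge were compared with members inside over 1610 genes with at least 100 UMIs in the members of both sections together, of which 49.9% and 50.2% were higher at the edge. Leptomeningeal markers were higher at the edge for 15 of 17 genes in each section, with median log2 ratios of 1.43 and 0.65. Of the 7 solute transporters compared 6 and 5 were higher at the edge, with medians of 1.66 and 1.37. Slc6a20a, Slc13a3 and Slc13a4 were on this list and on the leptomeningeal list, so the lists are not independent here. Smooth muscle markers were even, with 5 and 3 of 7 higher and medians of 0.14 and -0.19. Oligodendrocyte markers were lower at the edge for 10 of 10 genes in each section, with medians of -2.12 and -1.68. Members inside the tissue thus had lower leptomeningeal and higher myelin levels than those at the edge, while smooth muscle markers had no common direction.

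Slc13a4, a sulfate transporter, had log2 edge over inside ratios of 2.10 and 1.70, and Slc13a3, a dicarboxylate transporter, had 1.959 and 1.841. Spp1, the secreted phosphoprotein osteopontin, had 2.04 and 2.68, Fmod 1.673 and 1.499, and Slc6a20a 1.66 and 1.55. Ptgds was also higher at the edge, at 2.02 and 1.31. Among the lowest at the edge were Mog (-1.69 and -3.22), Mbp (-2.07 and -1.74), Qdpr (-2.36 and -2.30) and Slc44a1 (-2.46 and -2.46), of which Mog and Mbp encode myelin proteins. The edge members held 57471 and 83787 UMIs in 12 and 14 spots, and in the section labelled untrained they were shallower, with a median of 4723.5 UMIs against 13142.5 inside. With the 30 highest scores in place of 60 the leptomeningeal median was -0.01 in the section labelled untrained and the transporter medians were -0.38 and -0.22, so these 3 medians did not keep their direction among the members of highest score. The leptomeningeal median in the section labelled trained was then 1.07 and the oligodendrocyte medians were -1.98 and -1.91. The oligodendrocyte median was nearer to 0 at -0.74 with 120 members in the section labelled trained, and at -0.74 without the subtraction of choroid plexus genes in the section labelled untrained.

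**Figure D4:**
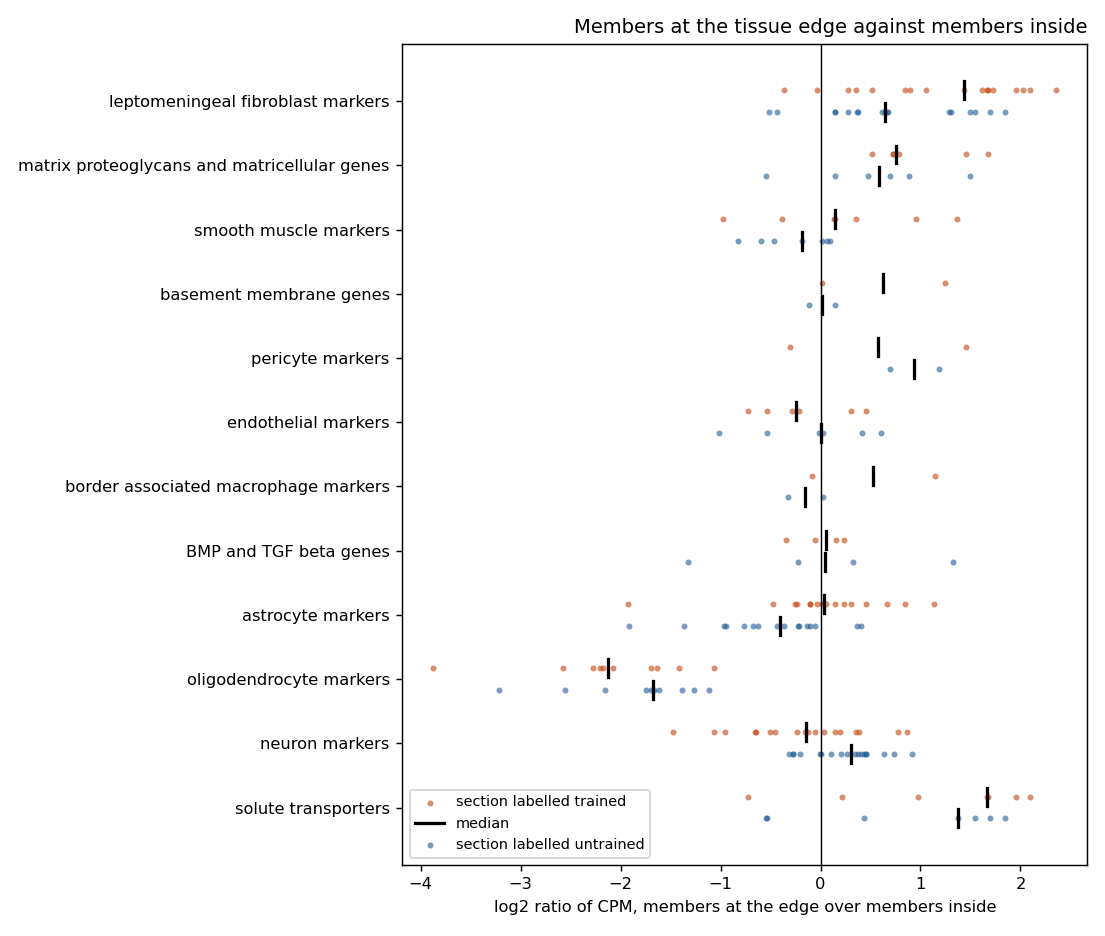
Log2 ratio of pooled CPM in members at the tissue edge over members inside for genes of 12 lists with at least 100 UMIs over the members, 1 point per gene and section, with a black tick at each median. Oligodendrocyte markers all lie left of 0, with medians of -2.12 and -1.68, and most leptomeningeal markers lie right of 0.

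Spots beside a member are by construction spots that missed the score, so a drop from members to their neighbours in genes that follow the rule genes was fixed by the selection, and the values are a description. Spots around the members were grouped by grid steps to the nearest member, with spots at least 4 steps away as the reference. The leptomeningeal median fell off from 3.56 and 3.47 in the members to 1.26 and 1.07 at 1 step, 0.90 and 0.72 at 2 steps and 0.52 and 0.53 at 3 steps. At 1 step 23 of 24 leptomeningeal genes were above the reference in the section labelled trained, against 45.3% of all genes tested. Smooth muscle markers went from 3.68 and 3.53 to 0.71 and 0.54 at 1 step. Endothelial markers went from 1.503 and 1.728 to 0.17 and 0.43. Neuron markers were below the reference at each step but came nearer to it with distance, from -0.44 and -0.69 in members to -0.14 and -0.34 at 1 step. At 1 step the leptomeningeal median was thus the highest of these lists.

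Oligodendrocyte markers stayed above the reference at 1 step at 0.88 and 0.81, in the section labelled trained higher than in the members themselves at 0.34. Choroid plexus markers, low in the members by the rule, were higher than the reference in the rings, with 0.58 and 0.56 at 1 step, 1.19 and 1.29 at 2 steps and 0.64 and 1.35 at 3 steps. The part of the subtracted score in these ring values was not tested. Spots at 1 step numbered 264 and 235, with median depths of 4146.5 and 11925 UMIs against 6766.5 and 14500 in the reference.

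**Figure D5:**
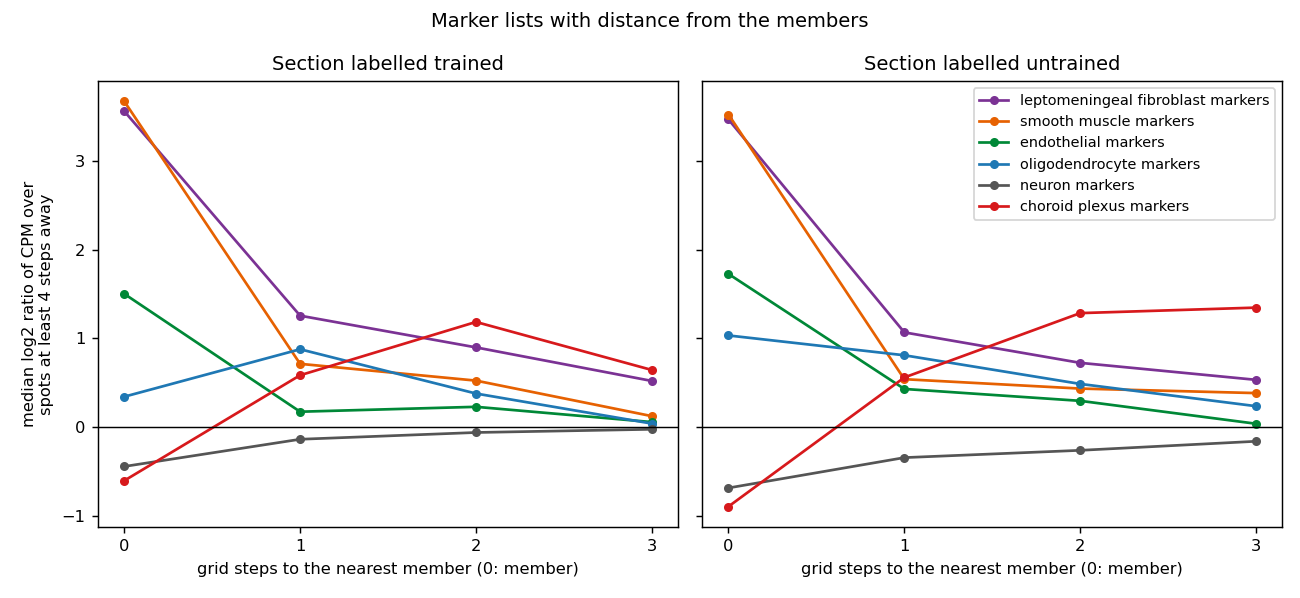
Median log2 ratio of pooled CPM over spots at least 4 grid steps from any member, by steps to the nearest member, for 6 marker lists in the 2 sections. Smooth muscle and leptomeningeal lines drop steeply from members to 1 step, and the choroid plexus line rises to 1.19 and 1.29 at 2 steps.

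The sections were set against each other through the ratio of members to remaining spots, which takes out a shift common to the whole library. Of 709 genes with at least 200 UMIs over the members, the difference between the section labelled trained and the section labelled untrained had an SD of 0.26 on the log2 scale, against a median counting error of 0.16 per gene. One gene (0.141%) differed at least 2-fold in the positive direction and none (0%) in the negative direction, and 52% of the genes were above 0. Without the 8 positions shared by members of both sections 7 of 611 genes differed at least 2-fold. Igfbp2 had the largest difference, 1.10 (0.73 to 1.48), from a ratio of 2.20 in the section labelled trained and 1.09 in the section labelled untrained. Its level was lower in the section labelled trained both in the members, at 253 against 376 CPM, and in the remaining spots, at 55.6 against 177 CPM. On the log2 scale, trained over untrained as labelled, it was -0.56 (-0.96 to -0.20) in the members and -1.67 (-1.74 to -1.59) in the remaining spots. Ttr, with a difference of 0.88 (0.77 to 0.99), was also lower in both, with 2656 against 4883 CPM in the members and 5376 against 18223 CPM in the remaining spots. The summed choroid plexus list was 5935 and 19809 CPM in those remaining spots, so choroid plexus tissue moved with these values and its part in them was not tested.

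Myl9 had a difference of 0.80 (0.50 to 1.11) and Mgp of 0.63 (0.42 to 0.84), while Atp6v1g2, a subunit of the proton pump of vesicles, had 0.89 (0.49 to 1.30). At the other end stood Fbxo2 (-0.98, -1.46 to -0.49), Mog (-0.87, -1.32 to -0.42), Gfap (-0.85, -1.18 to -0.52), Trf (-0.81, -1.09 to -0.53) and Mal (-0.79, -1.10 to -0.48). Mog, Trf and Mal are oligodendrocyte genes, and the 10 of 14 listed genes with enough UMIs had a median difference of -0.65, all below 0. The smooth muscle list had a median difference of 0.22 over 3 genes and the leptomeningeal list of -0.33 over 6. Among edge spots alone the difference for Gfap was 1.58 (0.50 to 2.66), the opposite direction. The signs of Mog (1.02, -1.33 to 3.37), Trf (0.31, -0.76 to 1.39), Fbxo2 (0.66, -0.46 to 1.77) and Atp6v1g2 (-0.32, -1.60 to 0.96) were opposite too, with intervals that include 0. Igfbp2 (3.20), Ttr (2.51), Myl9 (1.77), Mgp (1.76) and Mal (-0.86) kept their sign. Without the shared positions Mog (-1.42), Mal (-1.205) and Trf (-1.10) differed more and Igfbp2 (1.01) stayed above 2-fold. With 1 section per group, training, animal, section plane and library cannot be told apart.

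The share of members with a UMI depended on depth. Tagln had a UMI in 23 of 60 members (38.3%, 26.1 to 51.8%) and in 3.63% of remaining spots of the section labelled trained, and in 26 of 60 (43.3%, 30.6 to 56.8%) and 7.98% of the section labelled untrained. When every spot was brought to 1000 UMIs, the expected shares were 16.0% against 0.681% and 10.2% against 0.632%. Mgp was found in 46 (76.7%) and 53 (88.3%) members as deposited and was expected in 44.6% and 49.9% at equal depth, against 3.998% and 4.842% of remaining spots. Snap25 was found in 55 and 56 of 60 members. No spot set known to be free of vessels and meninges was used as a background for these shares.

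Moran's I, the deposited score of how alike neighbouring spots are, was 0.04 and 0.06 as a median over the 30 leading genes, against 0.02 and 0.03 over all genes tested. Ptgds had 0.37 and 0.36, while Myh11 had 0.04 and 0.06 and Tagln 0.02 and 0.07. These genes differ in abundance, and the part of sparse counts in their scores was not tested.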

How the data were processed

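RNA was captured on Visium slides from 1 section per mouse. The authors trimmed reads, aligned them to the mm10 reference of 10x Genomics and counted UMIs with Space Ranger 2.0.0, and the deposited matrices hold these raw counts per gene and spot. The deposited enrichment tables by the authors hold Moran's I, a score per gene, and summed counts, which equalled the matrix for all listed genes. Images were not used here. Sections are named by their labels, which were not checked against gene measures here.

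Counts of all spots of a set were pooled and scaled to CPM, and log2 ratios used a pseudocount of 0.5 UMI. Intervals were exact conditional binomial for a ratio, Clopper-Pearson for a share and normal for a difference of ratios. A call was a 2-fold ratio, and no p-value was computed. Shares at equal depth are expectations over all draws of 1000 UMIs. Section totals were 29515831 and 59029131 UMIs. Doublet callers do not apply to spots. Gene positions are from GENCODE vM21 on GRCm38/mm10, matched by Ensembl identifier for 32235 of 32285 genes, with exons of the longest transcript. Analyses ran in Python 3.11.15 (pandas 2.3.3, scipy 1.17.1, numpy 2.4.6), figures were drawn with matplotlib 3.10.9, and the ratio and its interval were tested on simulated data.

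Named genes were the 30 with the highest lower ratio of both sections, the 10 with the lowest higher ratio, genes of 24 lists, the 5 highest and 5 lowest differences between sections and the 5 highest and 5 lowest edge ratios. Members and lists were chosen with earlier results of these data known. Some genes that these rules select are not reported here.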

Additional observations from a re-analysis of the deposited data

Results flagged for a closer look

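Among the named genes 1 had opposite directions in the sections with both counting intervals excluding no difference. The mitochondrially encoded mt-Atp8 was higher in the members of the section labelled trained, with a log2 ratio of 0.40 (0.06 to 0.70), and lower in those of the section labelled untrained, with -0.15 (-0.27 to -0.03). The difference was 0.54, and it was not tested, since each group holds 1 section.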

How the results depend on the processing

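No paired analysis was possible because each group holds 1 section. Over 14 alternatives the 30 leading genes gave 840 log2 ratios, of which none was below 0 and 1 was below 2-fold (0.22). These genes had been ranked on the reported ratios, and Inmt, Lum, Pf4 and Thbd passed the filter only through the members. A change in the minimum UMIs per gene leaves the ratio of a single gene as it was, so those alternatives repeat the reported values. The 840 ratios are therefore a description only. Recomputed under the alternatives, the main results gave 132 values within the counting interval or within 1.5 times, 39 that moved further and 3 that reversed, and the cause was not tested unless given. Genes at least 2-fold higher in both sections numbered 964 with a pseudocount of 2 UMIs, which by construction raises the side with fewer UMIs, 1214 among edge spots only, and 896, 142 and 5476 with at least 50, 400 or 1 UMIs per gene, where the number of genes tested changes too. Those at least 2-fold lower numbered 19 with that pseudocount, 221 among edge spots, 250 with 30 members, 58 with 120 members, 273 without the choroid plexus subtraction and 61 at 400 UMIs. The leptomeningeal median in the section labelled trained was 3.83 among edge spots and 2.20 at 400 UMIs. It was 3.50 in the section labelled untrained with 30 members, 2.55 with 120, 3.44 at 50 UMIs, 1.93 at 400 and 3.43 at 1. The smooth muscle median there was 2.57 among edge spots, 3.86 with 30 members, 3.02 with 120, 3.10 without subtraction and 3.77 at 1 UMI. Genes that differed at least 2-fold between sections numbered 0 of 709 with the mean CPM of single spots and 2 of 709 with a reference at least 3 steps away. They numbered 2 of 1594 with 120 members, 2 of 832 with spots of at least 3000 UMIs and 3 of 61 among edge spots. With 30 members they were 5 of 355, and without subtraction 7 of 884. They numbered 3 of 692 when members had to hold at least 3 rule genes, and 7 of 611 without the positions shared by members of both sections. Both of these alternatives were chosen after seeing the data. With 30 members the edge over inside median reversed to -0.0099 for leptomeningeal markers in the section labelled untrained and to -0.38 and -0.22 for solute transporters in the 2 sections. The oligodendrocyte edge median was -0.74 with 120 members in the section labelled trained, and -0.74 without subtraction in the section labelled untrained. At 1 step in the section labelled untrained the leptomeningeal median was 1.44 with 30 members and 1.61 without subtraction, and the smooth muscle median was 0.88 without subtraction. The share of members beside a member was 60% without subtraction in the section labelled untrained and 20% with spots of at least 3000 UMIs in the section labelled trained.

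Single genes and lists also changed sign. Among edge spots only, log2 ratios in the section labelled trained were -0.96 for Mbp and -1.23 for Qdpr. Those in the section labelled untrained were -0.27 for Mal, -0.62 for Mbp, -2.03 for Mog, -1.25 for Qdpr, -1.52 for Slc44a1, -0.79 for Trf, 0.28 for Pgr, 0.23 for Trbc2 and -0.44 for the oligodendrocyte list. There the difference between sections was -0.32 for Atp6v1g2, 0.66 for Fbxo2, 1.58 for Gfap, 1.02 for Mog and 0.31 for Trf. Without the subtraction, which then lets choroid plexus spots in, Ttr was 3.43 and 1.81, and the choroid plexus list 1.68 in the section labelled untrained. The mitochondrial list there was 0.000911 with 120 members, and at 400 UMIs the collagen list held only Col9a3, at -0.10. Depth limits the section labelled trained most, where the median gene tested had 8 UMIs over the members.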
